A study of Mus musculus with 12 samples.

Results

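The mature migratory dendritic cell program is the set of genes that a dendritic cell switches on when it matures and leaves tissue for the lymph node. It was followed here through 31 genes, chosen because they are known genes of CCR7-positive mature dendritic cells, the noncanonical NF-kB arm included. The choice was made with earlier results of these data known. All 31 were among the 24499 gene symbols of the count table, and 30 of them passed the filter on low counts, which kept 10714 genes. The cells were CD11c-positive cells from lymph nodes draining an E0771-cOC tumour, collected on day 9 after the tumour cells were injected into wildtype C57BL6 mice or into APOE-KO mice, which lack apolipoprotein E. Both genotypes carried the tumour and no tumour-free node was measured. Nodes were minced, digested with collagenase I/IV and DNase I and enriched on CD11c MicroBeads without a further sort, so each library mixes every cell type that the beads retained. There were 6 libraries from each genotype, and the question was how gene expression differed between them. The labels do not say whether each library came from 1 animal, so the p-values measure the spread between these libraries.

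A dendritic cell that has taken up antigen matures by raising the chemokine receptor CCR7, rebuilding its actin skeleton and moving along gradients of CCL19 and CCL21 into the T cell zone of the node. There it presents antigen, attracts T cells with chemokines such as CCL22, CCL17 and CCL5, and makes cytokines such as the IL-12 p40 chain. Many of these genes are known NF-kB targets, and the RelB and p52 subunits of the noncanonical arm are known for their part in dendritic cell maturation.

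Library totals ran from 2381477 to 4898360 counts, and 3 counts corresponded to 0.525 to 1.59 CPM (the share of a library's counts, scaled by the trimmed mean of M-values). The ribosomal repeat gene Rn45s took between 2.71% (wildtype library 3) and 32.2% (wildtype library 1) of a library. Wildtype library 1 and APOE-KO library 5 stood apart on the second principal component of log2 CPM (15.9% of the variance), at 51.4 and 49.7, with the other 10 between -25.4 and -1.99. On the first component (21.1%) the same 2 libraries lay at opposite ends, at -58.5 and 60.4, with the other 10 between -20.3 and 21.0. Apoe, the deleted gene, averaged 481 ± 45.7 CPM in the wildtype and 5.81 ± 2.95 CPM in the APOE-KO libraries (SD, n = 6 each), 86.1-fold lower with an adjusted p of 5.25e-16. Itgax, which encodes CD11c, was at 278 ± 54.0 CPM and 298 ± 36.9 CPM (SD, n = 6 each), with a log2 fold change of 0.10 and an adjusted p of 0.841. Adjusted p-values come from edgeR's quasi-likelihood test, corrected over all 10714 genes by the Benjamini-Hochberg method. A gene is said to have risen or fallen only where that value was below 0.05.

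Of the 30 tested members, 9 rose in APOE-KO libraries: Ccr7, Marcksl1, Cacnb3, Tmem123, Anxa3, Mreg, Ccl22, Socs2 and Eno2. Over all tested genes, 116 (1.08%) rose and 44 (0.411%) fell. No member fell, and none had a lower level at an unadjusted p under 0.05, a count of 0 that DESeq2 and limma-voom also gave. The other 21 members did not pass. Without wildtype libraries 1 and 3 and APOE-KO library 5, 11 members rose, and the 9 were among them. With T and B cell marker levels in the fit 6 rose, 5 of them among the 9, with the replicate number as a block 6 rose, and with the epithelial marker level 0 rose. For 6 members all APOE-KO libraries lay above all wildtype libraries, as they did for 132 of all tested genes (1.23%). The fitted log2 fold change was positive for 29 members, where it was positive for 5062 of all tested genes (47.2%). The median log2 fold change was 0.48 over the members, a 1.4-fold higher level in APOE-KO, against -0.02 over all tested genes. As the members were chosen with earlier results of these data known, these shares are no independent evidence of direction. The members' values ran from -0.12 for Rel to 0.98 for Eno2. In bulk libraries such as these, more cells of a type and more RNA per cell cannot be told apart, nor can fewer cells and less RNA.

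**Figure D1:**
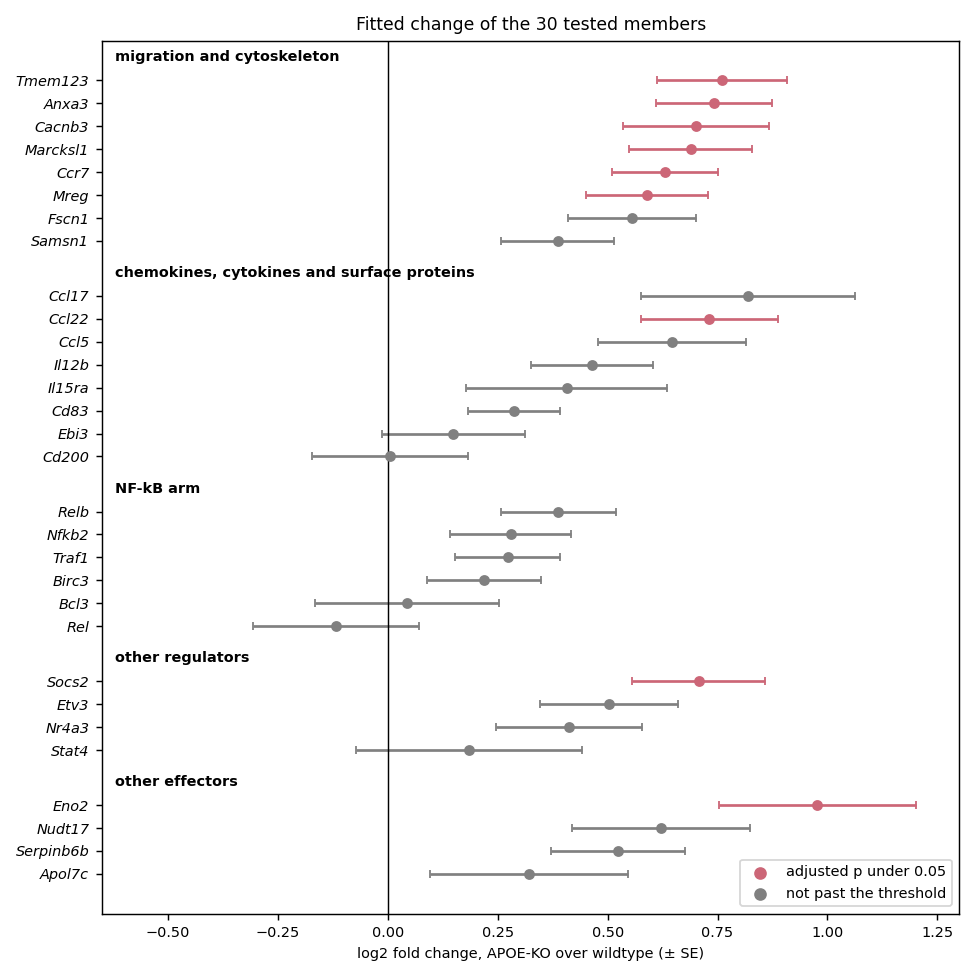
Fitted log2 fold change of each of the 30 tested members, APOE-KO over wildtype, with its standard error, grouped by role. Coloured points are the 9 members that passed the threshold and grey points the 21 that did not. Rel, at -0.12, is the one member left of 0.

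The group headed migration and cytoskeleton held most of the calls: 6 of its 8 members rose, with a median log2 fold change of 0.66 (1.58-fold). The headings were made for this report. This group also holds genes described below by other functions, such as Tmem123, Cacnb3, Anxa3, Mreg and Samsn1. Ccr7 (chr11:99144196-99155077, GRCm38, minus strand), the receptor that steers mature dendritic cells towards the T cell zone, had a lowest, median and highest level of 605, 670 and 825 CPM in wildtype and of 854, 1094 and 1258 CPM in APOE-KO libraries. Every APOE-KO library was above every wildtype library. The level was 1.55-fold higher in APOE-KO (log2 fold change 0.63 ± 0.12 SE, adjusted p = 0.00444). A term for epithelial markers, or terms for T and B cell markers, ended the call, with an edgeR adjusted p of up to 0.298. The libraries also held T and B cell markers, and which cells the Ccr7 reads came from cannot be told.

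Fscn1 encodes fascin, which bundles actin in the long processes of mature dendritic cells. It lay at 588, 692 and 1031 CPM (lowest, median, highest) in wildtype and at 893, 1219 and 1322 CPM in APOE-KO. The groups overlapped, with 4 APOE-KO libraries above all wildtype libraries. The difference, 1.47-fold, missed the threshold at an adjusted p of 0.0562, with values of 0.00776 to 0.154 when 1 library at a time was left out.

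Marcksl1 (chr4:129513581-129515985), a membrane-linked actin-binding protein, was at 146, 179 and 214 CPM in wildtype and at 217, 304 and 335 CPM in APOE-KO libraries. The groups did not overlap. Its log2 fold change was 0.69 ± 0.14 (1.61-fold, adjusted p = 0.00855). Anxa3 (chr5:96793339-96845966), a calcium-dependent phospholipid-binding annexin, was at 150, 168 and 209 CPM against 213, 281 and 347 CPM. These groups were also separate, with a 1.67-fold difference (log2 fold change 0.74 ± 0.13, adjusted p = 0.00254).

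Tmem123 (chr9:7764041-7794333), which encodes the cell-surface mucin-like protein porimin, had the highest CPM of the members, a scale that is not per length. It ran from 1456 through a median of 1617 to 2551 CPM in wildtype, and from 2200 through 3141 to 3879 CPM in APOE-KO. The groups overlapped, and 4 APOE-KO libraries were above all wildtype libraries. The difference was 1.69-fold (log2 fold change 0.76 ± 0.15, adjusted p = 0.00543).

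Cacnb3 (chr15:98630840-98644529), the beta-3 subunit of voltage-gated calcium channels, was at 62.1, 104 and 145 CPM in wildtype and at 147, 164 and 185 CPM in APOE-KO. The groups touched without overlapping, and the difference was 1.63-fold (log2 fold change 0.70 ± 0.17, adjusted p = 0.0281). Leaving out any of wildtype libraries 4, 5 and 6 or of APOE-KO libraries 2, 3 and 6 ended the call, with an adjusted p of 0.00813 to 0.0785 over all 12 such fits, and a term for epithelial markers took the log2 fold change to 0.25. Mreg (chr1:72159442-72212307), melanoregulin, a regulator of organelle transport, was at 163, 218 and 235 CPM against 242, 307 and 392 CPM. These groups were separate too, at 1.5-fold (log2 fold change 0.59 ± 0.14, adjusted p = 0.0269), and leaving out any of wildtype libraries 1 and 6 or of APOE-KO libraries 3, 4 and 6 ended the call, with an adjusted p of 0.0158 to 0.105 over the 12 fits. Samsn1, an adaptor of immune-cell signalling, was at 405, 419 and 565 CPM against 426, 573 and 712 CPM, which overlapped (1.31-fold, adjusted p = 0.166).

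**Figure D2:**
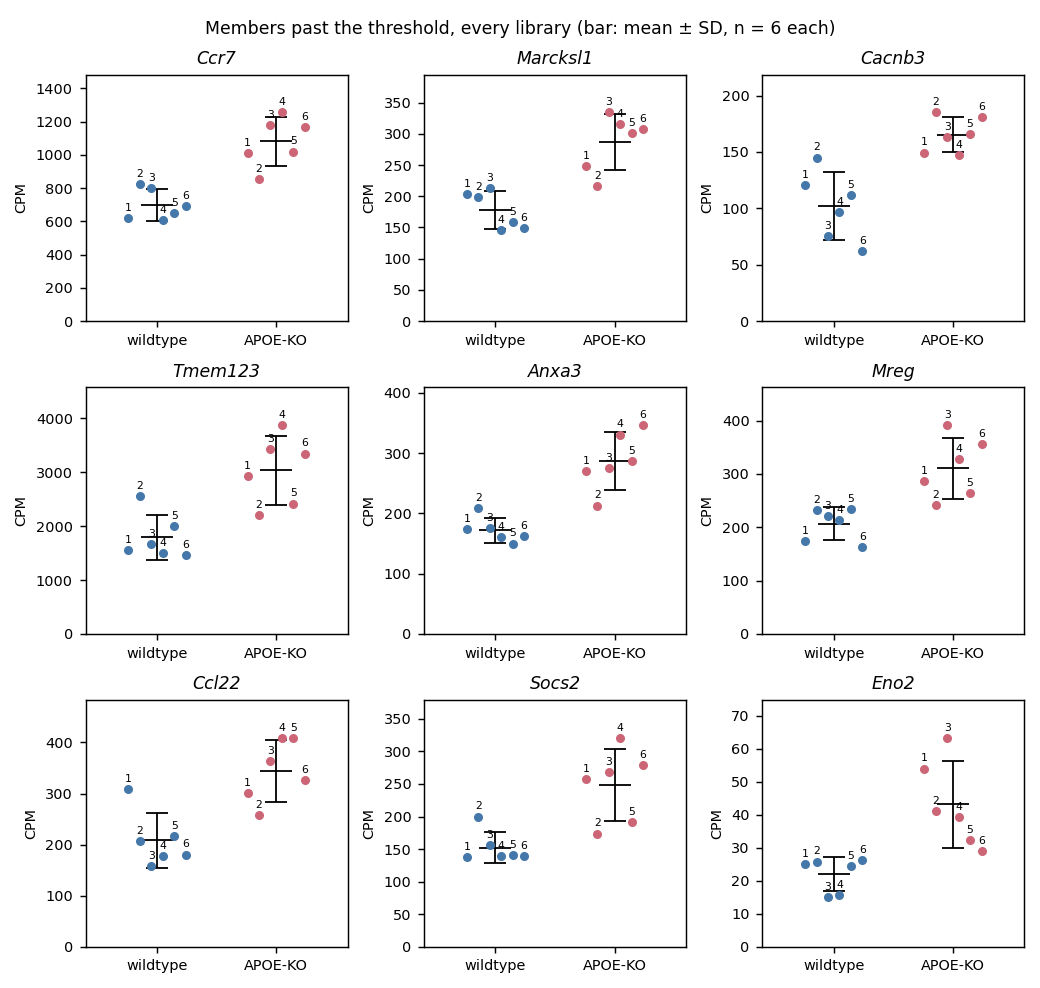
CPM of the 9 members that passed the threshold, 1 panel a gene, with 1 point a library and a bar for the mean ± SD of the 6 libraries of each genotype. The genotypes are separate for Ccr7, Marcksl1, Cacnb3, Anxa3, Mreg and Eno2, and overlap for Tmem123, Ccl22 and Socs2.

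Among the chemokines, cytokines and surface proteins, Ccl22 rose and the other 7 tested members did not pass, although all 8 had a positive log2 fold change (median 0.44, 1.35-fold). Ccl22 (chr8:94745590-94751699), a ligand of the T cell receptor CCR4, was at 158, 194 and 309 CPM in wildtype and at 257, 345 and 409 CPM in APOE-KO. Wildtype library 1, at 309 CPM, lay inside the APOE-KO range, and 4 APOE-KO libraries were above all wildtype libraries. The difference was 1.66-fold (log2 fold change 0.73 ± 0.16, adjusted p = 0.0133).

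Ccl17, the other CCR4 ligand, lies 58754 bases from Ccl22 on the same strand (chr8:94810453-94812036). It was a lower-count gene, at 13.6, 45.2 and 53.0 CPM in wildtype and at 48.7, 66.2 and 97.9 CPM in APOE-KO. With 5 APOE-KO libraries above all wildtype libraries, its fitted difference of 1.76-fold exceeded that of Ccl22, but its standard error of 0.24 on a log2 fold change of 0.82 left it at an adjusted p of 0.106. Ccl5, a chemokine that attracts effector T cells, was at 779, 1220 and 1882 CPM against 1601, 1978 and 2694 CPM. It overlapped between genotypes and stood just outside the threshold (1.56-fold, adjusted p = 0.0523, from 0.0121 to 0.174 with 1 library left out).

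Il12b, which encodes the p40 chain shared by IL-12 and IL-23, was at 209, 239 and 341 CPM in wildtype and at 304, 357 and 413 CPM in APOE-KO (1.38-fold, adjusted p = 0.107). Ebi3, the beta chain of IL-27, was at 39.8, 54.8 and 77.8 CPM against 60.9, 62.6 and 71.9 CPM (1.11-fold, adjusted p = 0.793). The APOE-KO libraries all lay within the wildtype range for Ebi3. The partner chains were barely read: Il12a had 32 reads over all wildtype and 21 over all APOE-KO libraries, Il23a 0 and 8, and Il27 10 and 5.

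Cd83, a surface protein that marks mature dendritic cells, was at 528, 557 and 640 CPM against 605, 710 and 749 CPM, with 5 APOE-KO libraries above all wildtype libraries (1.22-fold, adjusted p = 0.224). Il15ra, which presents IL-15 to neighbouring lymphocytes, was at 48.3, 81.6 and 116 CPM against 57.0, 108 and 151 CPM (1.33-fold, adjusted p = 0.497). Cd200, the ligand of an inhibitory receptor on myeloid cells, was at 49.3, 61.4 and 85.9 CPM against 50.5, 57.0 and 85.2 CPM. Its groups covered nearly the same range, and its log2 fold change was 0.01 ± 0.18 (adjusted p = 0.995). Il4i1, a secreted amino acid oxidase, was the member left out by the filter, with 0 reads over the wildtype libraries and 3 reads, all in APOE-KO library 1. Its gene overlaps Nup62 on the same strand.

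The NF-kB group held 6 members, of the noncanonical arm and its partners with the canonical subunit c-Rel, and none passed edgeR's test, nor did any in DESeq2 or limma-voom. At an unadjusted p under 0.05, 2 of the 6 were higher with edgeR and 3 with each of the other tools. The median log2 fold change was 0.25 (1.19-fold). Relb, the activating subunit, was at 146, 174 and 237 CPM in wildtype and at 221, 247 and 268 CPM in APOE-KO. It had 5 APOE-KO libraries above all wildtype libraries and the largest fitted difference of the 6 (1.31-fold, log2 fold change 0.39 ± 0.13, adjusted p = 0.176), and it passed only when wildtype library 3 was left out (adjusted p = 0.0422, where leaving out other libraries gave up to 0.346).

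Nfkb2, the precursor of the p52 subunit, was at 64.2, 77.5 and 88.7 CPM against 83.1, 87.9 and 111 CPM (log2 fold change 0.28 ± 0.14, adjusted p = 0.418). Traf1, an adaptor of TNF-family receptors, was at 176, 227 and 254 CPM against 242, 264 and 296 CPM (0.27 ± 0.12, adjusted p = 0.352). Both overlapped between genotypes. Birc3, a ubiquitin ligase that restrains the noncanonical kinase, was at 122, 147 and 157 CPM against 132, 170 and 200 CPM (0.22 ± 0.13, adjusted p = 0.529).

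Rel, the c-Rel subunit, was the one member with a negative value. It was at 72.6, 105 and 164 CPM in wildtype and at 70.6, 110 and 121 CPM in APOE-KO, and each genotype held 2302 Rel reads. The groups overlapped over nearly the whole APOE-KO range (log2 fold change -0.12 ± 0.19, adjusted p = 0.875). Bcl3, a nuclear partner of p50 and p52, was at 30.3, 38.8 and 57.1 CPM against 23.8, 42.7 and 58.4 CPM (0.04 ± 0.21, adjusted p = 0.97).

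Relb (chr7:19606217-19629438) and Bcl3 (chr7:19808462-19822770) are neighbours of Apoe, 66671 and 109274 bases from it. Neither passed the test. Within 1 Mb of Apoe, 4 of the 31 tested genes other than Apoe rose and 0 fell, where 1.08% of all tested genes rose and 0.411% fell. Whether nearness to the deleted gene has a part in the values of Relb and Bcl3 was not tested.

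The promoter sequences show which members carry the letters of a kappaB site near their start. The windows, from RefSeq on GRCm38.p6, run from 250 bases before to 50 bases after a start. They were searched on both strands for the kappaB consensus, a motif of 10 letters, and overlapping matches were kept. Of the 31 members 25 had a window and 4 had a match: Rel, Ebi3, Nfkb2 and Bcl3. Of the 9 members that rose, 6 had a window and 0 had a match. A match was present in 8.46% of all 32851 windows, and in 12.6% of the 8336 tested genes with a window. In the sequences printed here, chosen after the values were seen to set the matches in the NF-kB group and in Ebi3 beside the chemokine promoter without one, capitals mark the match. Rel is shown on the minus strand (chr11:23770971-23771219), with its match 92 bases before the start. Ebi3 is on the plus strand (chr17:55952373-55952622), with a match 44 bases before the start. Nfkb2 (chr19:46304688-46304717, plus strand) and Bcl3 (chr7:19822734-19822763, minus strand) are shown as 30 bases around a match, which begins 39 bases before the start in Nfkb2 and 2 bases after it in Bcl3. Ccl22 (chr8:94745434-94745589, plus strand), which rose, has no match in its window, which says only that these letters are not there.
Rel: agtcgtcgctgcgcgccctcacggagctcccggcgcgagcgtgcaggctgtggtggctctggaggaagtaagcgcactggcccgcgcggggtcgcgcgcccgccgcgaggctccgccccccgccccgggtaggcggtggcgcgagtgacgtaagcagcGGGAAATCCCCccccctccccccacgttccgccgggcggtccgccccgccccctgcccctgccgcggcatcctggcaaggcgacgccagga
Ebi3: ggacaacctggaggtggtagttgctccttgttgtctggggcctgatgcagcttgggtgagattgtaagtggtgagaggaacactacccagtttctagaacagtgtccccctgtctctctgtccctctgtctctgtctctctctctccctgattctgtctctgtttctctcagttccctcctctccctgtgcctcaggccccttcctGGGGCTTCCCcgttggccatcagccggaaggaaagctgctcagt
Nfkb2: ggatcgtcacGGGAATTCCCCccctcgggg
Bcl3: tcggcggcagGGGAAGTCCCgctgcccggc
Ccl22: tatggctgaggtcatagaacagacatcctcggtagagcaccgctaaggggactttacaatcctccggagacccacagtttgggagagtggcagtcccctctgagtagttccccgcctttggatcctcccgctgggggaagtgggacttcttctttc

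The 30 NF-kB pathway genes outside the members had a median log2 fold change of 0.14, and 1 of them rose and 0 fell. The one that rose was Tnfrsf1b, the TNF receptor TNFR2, at 103, 122 and 166 CPM in wildtype and at 164, 197 and 215 CPM in APOE-KO, which overlapped slightly (1.52-fold, log2 fold change 0.60 ± 0.14, adjusted p = 0.0223). Nfkb1, the p105 precursor of p50, was at 70.3, 109 and 113 CPM against 76.1, 122 and 145 CPM (0.23 ± 0.16, adjusted p = 0.614). Rela, the canonical activating subunit, was at 112, 146 and 162 CPM against 134, 151 and 194 CPM (0.15 ± 0.13, adjusted p = 0.727). Map3k14, the kinase NIK that starts the noncanonical arm, had a log2 fold change of 0.28 ± 0.17 (adjusted p = 0.529). The 3 genes overlapped between genotypes.

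Among the other regulators, Socs2 rose and the other 3 did not pass, with 4 positive values and a median log2 fold change of 0.46 (1.37-fold). Socs2 (chr10:95385362-95417180), a suppressor of cytokine receptor signalling, was at 138, 140 and 200 CPM in wildtype and at 174, 263 and 321 CPM in APOE-KO. The groups overlapped through wildtype library 2, at 200 CPM, and 4 APOE-KO libraries lay above it. The difference was 1.63-fold (log2 fold change 0.71 ± 0.15, adjusted p = 0.0133).

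Etv3, an ETS-family repressor, was at 154, 291 and 356 CPM against 335, 385 and 453 CPM (1.42-fold, adjusted p = 0.137). Nr4a3, an orphan nuclear receptor, was at 192, 209 and 328 CPM against 236, 285 and 485 CPM (1.33-fold, adjusted p = 0.296). Stat4, a transcription factor downstream of IL-12, was at 16.5, 22.6 and 36.3 CPM against 11.7, 28.1 and 38.2 CPM (1.14-fold, adjusted p = 0.847). All 3 overlapped between genotypes.

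Of the 4 other effectors, Eno2 rose. Eno2 (chr6:124760053-124769673), an enolase of glycolysis, was one of the low-count members, with 459 reads over the wildtype and 952 over the APOE-KO libraries. It was at 15, 24.7 and 26.4 CPM against 29, 40.2 and 63.3 CPM, and the groups were separate. Its 1.97-fold difference was the largest fitted value of the program (log2 fold change 0.98 ± 0.22, adjusted p = 0.0216). Leaving out wildtype library 4 or any of APOE-KO libraries 1 and 3 ended the call, with an adjusted p of 0.0149 to 0.0887 over the 12 fits.

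Serpinb6b, a serine protease inhibitor, was at 128, 176 and 229 CPM against 186, 266 and 312 CPM, with 5 APOE-KO libraries above all wildtype libraries (1.44-fold, adjusted p = 0.0944). Nudt17, a predicted nucleoside diphosphate hydrolase, was at 20.4, 30.8 and 51.6 CPM against 40.8, 52.1 and 66.3 CPM (1.54-fold, adjusted p = 0.159). Apol7c, an apolipoprotein L family gene of dendritic cells, was at 21.9, 37.6 and 57.7 CPM against 33.3, 44.8 and 61.9 CPM (1.25-fold, adjusted p = 0.622). The groups overlapped for these 3 genes.

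**Figure D3:**
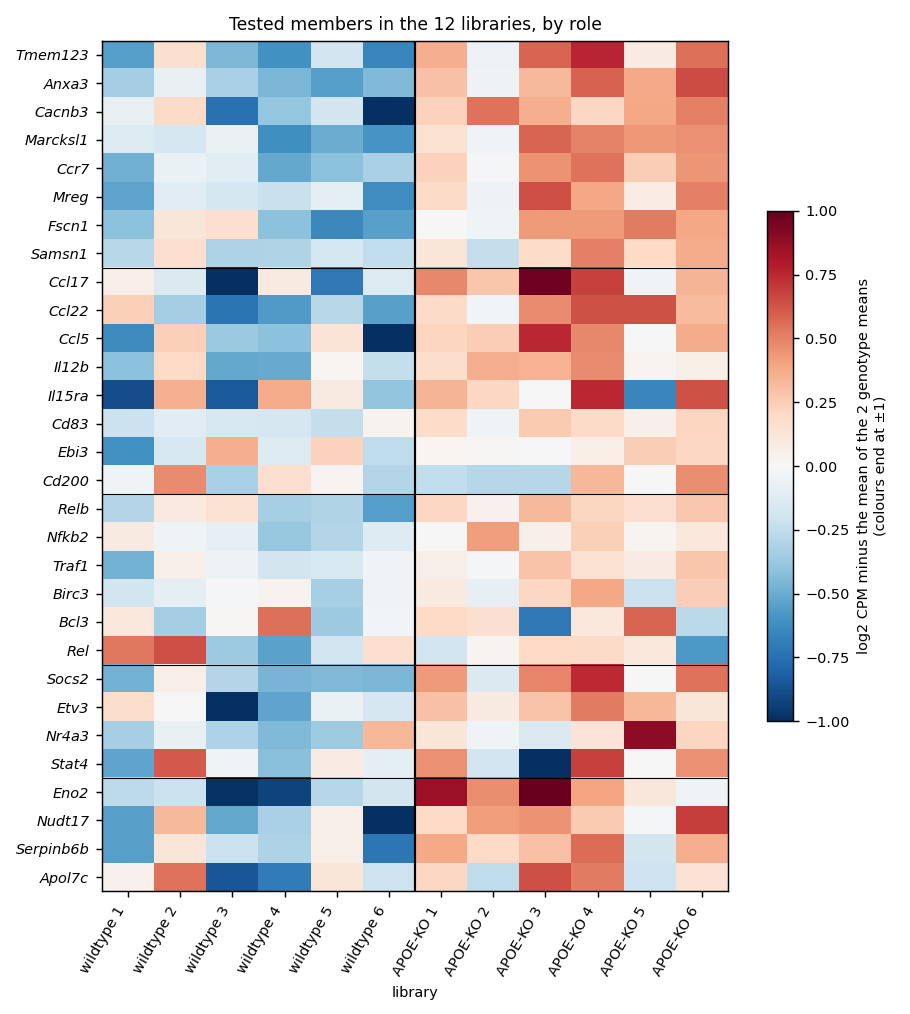
Level of the 30 tested members (rows, by role) in the 12 libraries (columns), as log2 CPM minus the mean of the 2 genotype means, with colours ending at ±1. The APOE-KO columns are mostly redder across the migration and cytoskeleton group. Rel, Bcl3, Cd200 and Stat4 mix both colours on each side of the vertical line between genotypes.

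Of 40 genes of mature dendritic cells outside the members, 38 were tested, 7 rose and 0 fell, and 37 had a positive value with a median log2 fold change of 0.50 (1.42-fold). This list too was drawn up with earlier results of these data known and is no independent evidence of direction. Cxcl16, a membrane-bound chemokine for CXCR6-positive T cells, was at 206, 255 and 269 CPM in wildtype and at 351, 436 and 475 CPM in APOE-KO (1.72-fold, log2 fold change 0.78 ± 0.12, adjusted p = 0.000473). Tnfrsf4, the costimulatory receptor OX40, was at 42.8, 57.6 and 70.3 CPM against 81.5, 103 and 122 CPM (1.82-fold, 0.87 ± 0.16, adjusted p = 0.00303). Both genes separated the genotypes without overlap.

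Aldh1a2, which makes retinoic acid, was at 5.31, 7.07 and 19.6 CPM in wildtype and at 16.5, 35.7 and 70.4 CPM in APOE-KO libraries. The groups overlapped, and the fitted difference was 3.49-fold (log2 fold change 1.80 ± 0.34, adjusted p = 0.0038). Cd63, a tetraspanin of late endosomes, was at 436, 580 and 850 CPM against 894, 1012 and 1252 CPM, with no overlap (1.71-fold, 0.78 ± 0.15, adjusted p = 0.00565). Lamp3, a lysosomal marker of mature dendritic cells, had 12 and 7 reads over the 6 libraries of each genotype and was not tested.

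Of 20 receptors and partners of the members, 10 were tested, and 0 rose or fell by edgeR's test, where 1 was higher at an unadjusted p under 0.05. DESeq2 called 1 of them higher and limma-voom 0. Their median log2 fold change was 0.06. The CCR7 ligands Ccl19 and Ccl21a had 0 reads in every library. Ccr4, the receptor of CCL22 and CCL17, had 18 reads over the wildtype and 53 over the APOE-KO libraries and stayed below the filter.

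The summed level of conventional dendritic cell markers, over all 18 listed genes, ran from 11243 to 15018 CPM in wildtype and from 11525 to 13655 CPM in APOE-KO libraries (exact permutation test over all assignments of genotype, two-sided, p = 0.264). The class II genes H2-Aa and H2-Ab1 and the factor Irf8 averaged 6350, 3071 and 2063 CPM of the wildtype mean of 13169 CPM, so the sum is mostly theirs. Within the list Clec10a, a lectin, fell 1.84-fold (adjusted p = 0.00345) and Sirpa, an inhibitory receptor, rose 1.4-fold (adjusted p = 0.0382), and the other 16 genes did not pass. Of the 18 genes 12 had a negative log2 fold change and 6 a positive one. At an unadjusted edgeR p under 0.05, 5 were lower and 2 higher, so an unchanged sum does not mean unchanged markers. The sums of some other lists differed between genotypes. Plasmacytoid dendritic cell markers, 11 of 11 listed, summed to 1539 to 3301 CPM in wildtype against 1220 to 1615 CPM in APOE-KO (exact p = 0.00866, adjusted over the 11 lists 0.0317). B cell markers, 10 of 12 listed in the table, summed to 820.0 to 1048 CPM against 663 to 839 CPM (exact p = 0.00649, adjusted 0.0317).

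Mammary epithelial markers, 12 of 12 in the table with Krt17 at or near 0, summed to 68.3 to 121 CPM in wildtype and to 7.84 to 76.6 CPM in APOE-KO (exact p = 0.00433, adjusted 0.0317). Cdh1 alone averaged 39.0 CPM of the wildtype mean of 95.1 CPM, and 16.4 of 29.7 CPM in APOE-KO. Of the 12 genes 4 were tested, and 1, Cdh1, fell. APOE-KO library 4, at 76.6 CPM, lay inside the wildtype range. The other APOE-KO libraries, at 7.84 to 29.5 CPM, lay below every wildtype library, so the epithelial sum and the genotype largely went together. With the mean log2 CPM of the epithelial markers, each gene weighted alike, added to the edgeR fit, 0 of the 9 members passed. Their median log2 fold change went from 0.71 to 0.83 and their median standard error from 0.15 to 0.27. With the mean log2 CPM of T cell and of B cell markers added instead, 6 members passed, 5 of the 9 and Ccl17. Ccr7, Marcksl1, Mreg and Ccl22 did not. The part of these cell types in the members' differences was not tested further.

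T cell markers, 12 of 15 listed in the table, summed to 682 to 762 CPM and 638 to 828 CPM (exact p = 0.749). Natural killer cell markers, 11 of 11 with Klra4 and Klra8 at or near 0, summed to 163 to 389 CPM and 109 to 283 CPM (exact p = 0.123). Macrophage and monocyte markers, 16 of 16 with Vsig4 at or near 0, summed to 1691 to 2075 CPM and 1898 to 2080 CPM (exact p = 0.0476, adjusted 0.105). Genes of that list went in both directions: Marco fell 2.92-fold and Mrc1 2.66-fold, while Lyz2 was 1.53-fold and C1qb 1.51-fold higher, and these 4 of 13 tested genes passed edgeR's test. The immediate early genes, which digestion can raise, summed to 8051 to 10752 CPM in wildtype and 7834 to 8493 CPM in APOE-KO (exact p = 0.026, adjusted 0.0714). Neutrophil markers (exact p = 0.39), endothelial and stromal markers (exact p = 0.474) and cell cycle genes (exact p = 0.0671) completed the 11 lists.

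Within a genotype the members could also be read against Ccr7, over 6 libraries each. Of 29 members, 23 had a positive correlation with Ccr7 in wildtype, 23 in APOE-KO and 19 in both. With each genotype's mean subtracted, over all 12 libraries, the members' median r with Ccr7 was 0.40, against 0.00713 for all other tested genes, of which 50.9% were positive. In all 80 relations were computed, with 29 members and 11 marker lists in each genotype. None passed Benjamini-Hochberg adjustment (smallest adjusted exact p 0.156 for r and 0.444 for rho), and 10 had an unadjusted exact p under 0.05 for r. The smallest p that the 720 pairings can give is 0.00139.

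Socs2 followed Ccr7 in both genotypes. In wildtype r was 0.84 (exact p = 0.00833) and rho 0.89 (exact p = 0.0333), and in APOE-KO r was 0.90 (exact p = 0.00556) and rho 0.89 (exact p = 0.0333). Without the 2 libraries farthest from the median of Ccr7, r was 0.57 and 0.67. Tmem123 had an r of 0.95 (exact p = 0.00417) and a rho of 0.94 (exact p = 0.0167) in APOE-KO, and an r of 0.60 (exact p = 0.185) and a rho of 0.54 (exact p = 0.297) in wildtype. Leaving out the 2 farthest libraries gave 0.85 and 0.02.

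In wildtype, libraries 2 and 3 had Ccr7 at 825 and 802 CPM while the other 4 lay between 605 and 690 CPM. Without them, 11 of the 23 positive members turned negative and 12 stayed positive. Stat4 went from 0.80 to 0.71, Traf1 from 0.76 to 0.64 and Samsn1 from 0.58 to 0.56, while Nr4a3 went from 0.33 to 0.89. The relation rested on those libraries for Fscn1, where r went from 0.84 (exact p = 0.0722, rho 0.43, exact p = 0.419) to -0.68. For Relb it went from 0.77 (exact p = 0.0903, rho 0.54, exact p = 0.297) to -0.82. In APOE-KO, Relb had an r of 0.83 (exact p = 0.0431, rho 0.77, exact p = 0.103), which was 0.91 without libraries 2 and 4. In APOE-KO, 4 of the 23 positive members turned negative without libraries 2 and 4. There Stat4 went from 0.16 to -0.46 and Nr4a3 from -0.07 to -0.60, while Traf1 (0.82 to 0.999) and Samsn1 (0.93 to 0.63) stayed positive. Of the chemokines, Ccl5 was positive in both genotypes, with an r of 0.35 in wildtype (exact p = 0.481) and of 0.61 in APOE-KO (exact p = 0.197). Without the same libraries, 2 and 3 in wildtype and 2 and 4 in APOE-KO, these were -0.38 and 0.83. Ccl17 (-0.54 and 0.57) and Ccl22 had opposite signs. Ccl22 had an r of -0.42 in wildtype (exact p = 0.413, rho -0.20, exact p = 0.714) and of 0.73 in APOE-KO (exact p = 0.104, rho 0.83, exact p = 0.0583). The APOE-KO value was -0.02 without libraries 2 and 4, and the difference between genotypes was not tested. Bcl3 was negative in both, at -0.54 (exact p = 0.276, rho -0.60, exact p = 0.242) and -0.48 (exact p = 0.336, rho -0.60, exact p = 0.242).

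**Figure D4:**
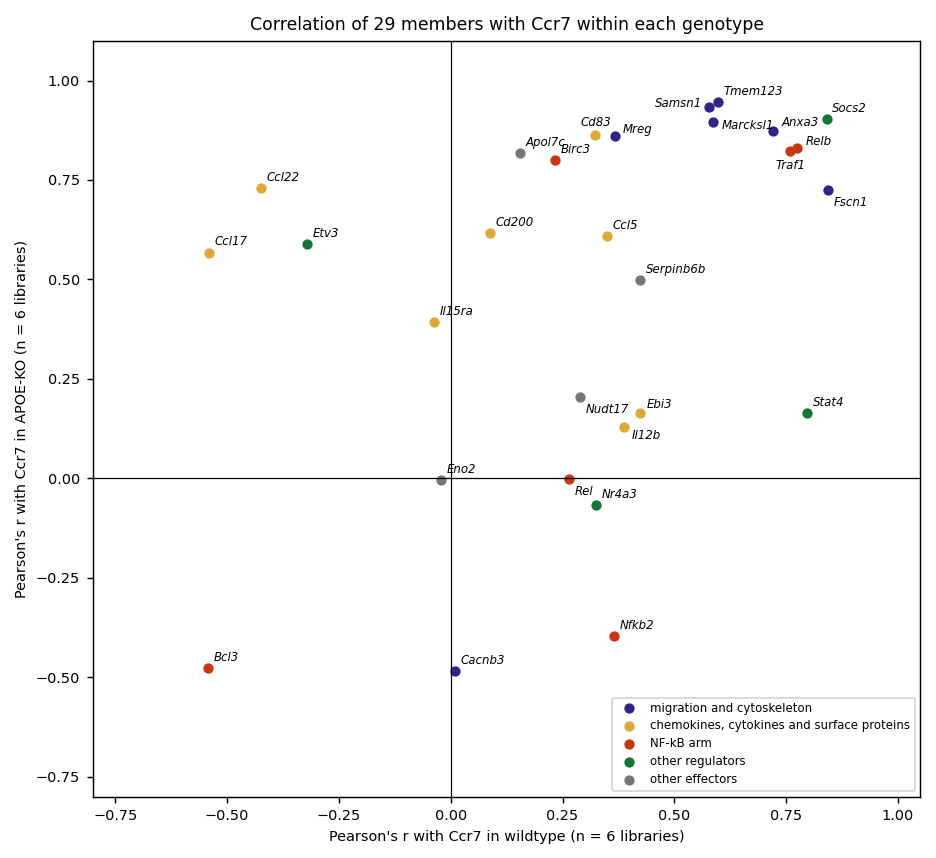
Pearson's r of each of 29 members with Ccr7 in the 6 wildtype libraries (horizontal axis) and in the 6 APOE-KO libraries (vertical axis), coloured by role. The 19 members in the upper right are positive in both genotypes, with Socs2 at 0.84 and 0.90, and Bcl3 is in the lower left at -0.54 and -0.48.

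With each genotype's mean subtracted, the 435 member pairs had a median r of 0.23 over the 12 libraries and 73.1% were positive. All pairs of tested genes had a median of -0.0015 and 49.9% were positive. The points share libraries and their scaling, so these values are descriptions. The highest pairs were Tmem123 with Socs2 (r = 0.91, rho = 0.92), Ccl5 with Nudt17 (r = 0.89, rho = 0.88) and Samsn1 with Anxa3 (r = 0.89, rho = 0.56), and the lowest was Ccl17 with Ebi3 (r = -0.80). Among the genes outside the members most like Ccr7 by this measure, of those with at least 10 CPM, were Plxnc1 (0.89), Wdr45 (0.87), D10Wsu102e (0.86), Pygl (0.84), Fnbp1l (0.84), Fam49a (0.84) and Ssbp1 (0.84). None of these 7 passed the test between genotypes, with adjusted p-values from 0.142 to 0.962.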

How the data were processed

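RNA was sequenced from the 3' ends of transcripts (Lexogen 3' FWD kit, per the labels). The authors deposited 1 table of raw gene counts for the 12 libraries. The submitters' processing notes name STAR 2.7.8a, featureCounts 1.5.1, R 4.1.0, DESeq2 1.4 and mm10. No source used here gives the strand setting, so antisense overlaps cannot be separated. No molecular identifiers are described, so a count is a read and the 3-count floor covers counting error only.

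The members and lists were chosen with earlier results of these data known. Counts were tested with edgeR 4.0.16 (quasi-likelihood, TMM scaling, filterByExpr with a minimum count of 10 and a total of 15, Benjamini-Hochberg 0.05) in R 4.3.3, on genotype alone. The code was tested on simulated data. Named genes are all members, Apoe and Itgax, up to 4 called genes with the smallest p from each pathway list, Nfkb1, Rela and Map3k14, and the 8 non-members most correlated with Ccr7, of which 1 is not reported here. The ligands, receptors and markers given by their reads alone, and the macrophage and dendritic markers named, were singled out after their values were seen. Relations with Ccr7 used log2 CPM with a prior count of 2. Alternatives were other scalings and filters, DESeq2 1.42.0, limma-voom (limma 3.58.1), robust fitting, Rn45s removed, marker covariates, a replicate block and leaving out libraries. Positions are from GENCODE vM21 (GRCm38).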

Additional observations from a re-analysis of the deposited data

Results flagged for a closer look

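Of 60 member and genotype groups examined, 3 held a library far from the other 5 by Dixon's test, and chance gives this in about 1 in 20 groups. Samsn1 was at 565 CPM in wildtype library 2, with the others between 405 and 444 CPM. Socs2 was at 199.9 CPM in the same library, with the others between 138 and 157 CPM. Nr4a3 was at 485 CPM in APOE-KO library 5, with the others between 236 and 302 CPM. Without these libraries the log2 fold change went from 0.39 to 0.47 for Samsn1, from 0.71 to 0.80 for Socs2 and from 0.41 to 0.24 for Nr4a3, and the cause was not tested.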

How the results depend on the processing

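Over 25 settings the members gave 750 values beside the reported ones. Of these, 671 kept their direction and side of the threshold, 30 lost the call, 32 gained it and 17 changed sign. Only the 9 members that had risen could lose a call. Mreg lost it in 8 of the 25 settings, Cacnb3 in 7, Eno2 in 5 and the rest of the 9 in 1 or 2 each. In any setting 0 members were called lower. Without a filter on low counts 14 members rose in place of 9. Over all genes, 160 were called in the reported fit and 297 with DESeq2 (194 higher, 103 lower), 335 with the Rn45s share as a covariate (199 and 136), 74 with T and B cell markers and 11 with epithelial markers, where 0 members rose. The cause was not tested. Leaving out 1 library at a time gave 6 (without APOE-KO 3) to 12 members (without wildtype 2 or 3) and 99 (without APOE-KO 3) to 230 genes (without wildtype 3). Members positive with Ccr7 in both genotypes numbered 13 (without wildtype 2) to 21. Without 3 libraries (wildtype 1 and 3, APOE-KO 5), 11 members rose, the 9 among them.

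All sign changes were in members that had not passed. Cd200 went to -0.00129 with a minimum count of 30, -0.00317 with the Rn45s share and -0.0787 without the 3 libraries, and ran from -0.10 to 0.12 with 1 library left out. With T and B cell markers, Ebi3 went to -0.0394, Rel to 0.0907 and Bcl3 to -0.00214. Bcl3 went to -0.0724 without the 3 libraries and ran from -0.0859 to 0.19 with 1 library left out, and Rel from -0.21 to 0.0199.

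The replicate numbers run alike in both genotypes, but same-numbered libraries did not deviate together (r from -0.077 to 0.0185) and the labels give no pairing. With the replicate block 100 genes passed, 6 members among them (Mreg, Socs2 and Eno2 did not), and Cd200 went to -0.0017. Depth limits Stat4, Eno2, Nudt17, Apol7c, Bcl3 and Ccl17 most among the tested members, with wildtype medians of 22.6 to 45.2 CPM.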
